A study of Mus musculus with 4 samples.

Results

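Aminoacyl-tRNA synthetases are the enzymes that join each amino acid to its transfer RNA, 1 family for the cytosol and another for mitochondria. The members were chosen by name from the platform annotation: 36 genes were listed, 20 cytosolic or shared and 16 mitochondrial. Of these, 34 had a probe set annotated to them alone, on 35 of the 35556 probe sets of the table. The cytosolic or shared set held 18 measured genes and the mitochondrial set 16. A probe set shared with another gene left out Aars, and Dars was not analysed here.

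The study used 4 Affymetrix arrays of the Mouse Gene 1.0 ST design, each carrying 1 RNA sample, from sorted marrow cells that were Flt3-negative, lineage-negative, Sca-1-positive and c-Kit-positive (LSK), a fraction rich in blood stem cells. The GABPα-deficient group had 2 arrays from Mx1Cre-GABPa(FL/-) mice, with 1 floxed and 1 null allele of Gabpa. The control group had 2 arrays from Mx1Cre-GABPa(FL/+) mice, with 1 floxed and 1 wild-type allele, so the controls also carried the floxed allele and the Cre. All mice were 6 to 8 weeks old, came from a stock backcrossed for 4 generations toward C57BL/6, and were sampled 4 days after the last dose of pIpC, a double-stranded RNA analogue. The Mx1 promoter that drives Cre responds to interferon, which pIpC induces, in many cell types besides stem cells. Whether single mice or pools gave the RNA is not stated, so each p-value rests on the spread between arrays that may be technical replicates.

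Each enzyme activates its amino acid with ATP and passes it to the matching transfer RNA, which sets how faithfully the genetic code is read. In the mammalian cytosol some of the enzymes sit in a multi-synthetase complex held together by scaffold proteins, while others work free. Mitochondrial enzymes are encoded in the nucleus, imported, and charge the transfer RNAs made from mitochondrial DNA. Uncharged transfer RNA is sensed by the kinase GCN2, whose signal raises the factor ATF4, and several cytosolic synthetase genes are ATF4 targets. GABP is an ETS-family factor known for binding promoters of housekeeping and mitochondrial genes.

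Promoters of 3 members are shown because GABP binds ETS sites: of the members with an ETS core in their promoter window they had the smallest unadjusted p. They are the bases before the gene's start in RefSeq's promoter table (build GRCm38.p6), on the gene's strand, 5′ to 3′, and capitals mark the ETS core CCGGAAG, here in its reverse complement. Gars and Mars are shown for 250 bases up to the start, and Rars2 runs on to the end of its core, which crosses the start.
Gars (chr6:55037751-55038000, plus strand): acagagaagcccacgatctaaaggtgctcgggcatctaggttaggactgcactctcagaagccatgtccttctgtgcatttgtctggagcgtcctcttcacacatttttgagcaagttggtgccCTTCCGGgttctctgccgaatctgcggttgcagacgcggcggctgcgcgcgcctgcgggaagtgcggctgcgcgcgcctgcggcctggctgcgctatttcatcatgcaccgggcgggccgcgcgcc
Mars (chr10:127311787-127312036, minus strand): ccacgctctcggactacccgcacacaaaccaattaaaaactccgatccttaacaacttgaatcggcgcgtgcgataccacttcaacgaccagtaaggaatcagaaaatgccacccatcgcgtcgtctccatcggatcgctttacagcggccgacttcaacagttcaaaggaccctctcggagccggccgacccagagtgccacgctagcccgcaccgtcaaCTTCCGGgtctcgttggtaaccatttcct
Rars2 (chr4:34614707-34614959, plus strand): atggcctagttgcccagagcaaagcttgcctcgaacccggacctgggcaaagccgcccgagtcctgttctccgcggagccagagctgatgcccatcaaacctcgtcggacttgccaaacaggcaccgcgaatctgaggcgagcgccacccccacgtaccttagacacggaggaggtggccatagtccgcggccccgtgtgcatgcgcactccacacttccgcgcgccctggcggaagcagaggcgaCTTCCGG
The core starts at position −126 from the start in Gars, −29 in Mars and −4 in Rars2. Gars and Mars read higher on both GABPα-deficient arrays than on both control arrays and Rars2 read lower, with values given further on.

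The motif CCGGAAG was searched on both strands of the 300-base windows that hold 250 bases before and 50 after each start. A window was found for 27 of the 36 members, and Cars, Hars, Lars, Nars, Rars, Vars, Wars, Hars2 and Pars2 had none in the table. The core was in 9 of the 27, or 33.3%, against 9.93% of all 27025 genes with a window. The carriers were Farsa, Gars, Kars, Mars and Sars among the cytosolic or shared enzymes and Cars2, Mars2, Rars2 and Sars2 among the mitochondrial ones. In 7 of the 9 it began between position −29 and −4, close to the start, and in Gars and Sars2 it began at −126 and −154. Of the 9 carriers, 7 had a log2 difference above 0 and 2 below, with a median difference of 0.35, and of the 16 measured members with a window and no core 13 were above 0 and 3 below, with a median of 0.11. Over all measured genes the median difference was 0.03 with the core and 0.17 without. The second motif, TGATGCA, the core of the site that ATF4 binds with a C/EBP partner, was in 4 of 27 members (Aars, Iars, Tars and Yars, all cytosolic), or 14.8%, against 3.63% of all genes. No member held both motifs. Both shares over all genes include dim and unmeasured genes, whereas all measured members lay in the brighter 50% of the table. Shares over brighter genes alone are not given, so these percentages do not show a trait particular to synthetases. The matches describe letters in a window and say nothing of binding.

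No synthetase gene passed the threshold, an adjusted p under 0.05 in limma's fit with Benjamini-Hochberg adjustment over all 35556 probe sets. The count was 0 of 34 members, and 0% of all probe sets passed. The lowest adjusted p of a member was 0.276, for Cars. At an unadjusted p under 0.05, 4 members were higher on the GABPα-deficient arrays (Cars, Gars, Mars and Fars2), where 6.64% of all probe sets were, and 0 were lower, where 5.25% were. Either way it was 11.9% of all probe sets, and among the brighter 50% it was 7.63% higher and 8.34% lower, 16.0% together. The count of higher members moved with the setting, from 2 with an intensity trend to 6 under cyclic loess. Such counts from the fits with 1 array left out are listed only at the end, among the processing alternatives. Nothing is drawn from these counts, since 1 group then holds 1 array. In those fits the direction turned for 18 of the 34 members. Below, differences are log2 values of the GABPα-deficient mean minus the control mean, with an SE, the standard error in the limma fit, and are given as values.

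The groups did not overlap for 14 members, against 52.9% of all probe sets. In 12 of 34 both GABPα-deficient arrays were above both control arrays, as for 38.9% of all probe sets, and in 2, Eprs and Rars2, both were below, as for 14.0%. All 34 members lay in the brighter 50% of the table, where the corresponding shares of probe sets were 32.0% and 20.2%, or 52.2% in all. A difference above 0 was found for 23 of 34 members, 66.4% of all probe sets and 56.7% of the brighter ones. The median log2 difference was 0.10 over all members, 0.08 over the cytosolic or shared and 0.11 over the mitochondrial ones. The same median over all probe sets was 0.15, so the cytosolic list lay at −0.06 and the mitochondrial list at −0.03 relative to it, and 15 of 34 members were above it. That position depended on the setting. Cyclic loess, a normalization that removes level-dependent shifts, moved the median of all probe sets to −0.0045. Under it the cytosolic or shared members had 0.04 and the mitochondrial members 0.03. Among the brighter 50% of probe sets the median was 0.08, where the 2 lists had 0.08 and 0.11.

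**Figure D1:**
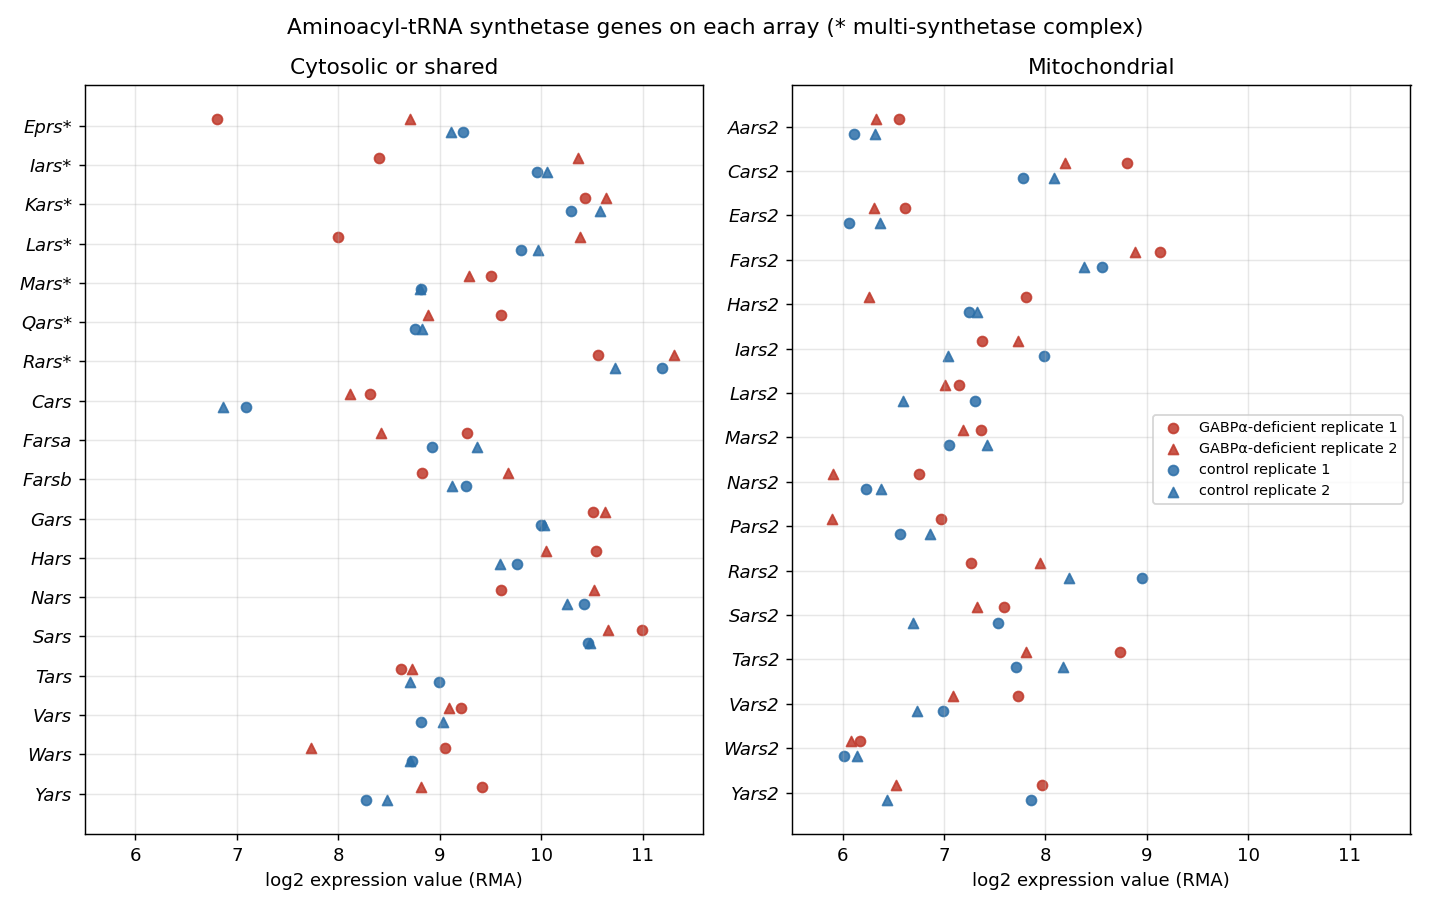
Log2 expression values of the 34 measured synthetase genes on each of the 4 arrays, cytosolic or shared on the left and mitochondrial on the right; red marks GABPα-deficient and blue control arrays, circles replicate 1 and triangles replicate 2. Cars stands at 8.31 and 8.12 on the GABPα-deficient arrays, right of both controls, and Eprs, Iars and Lars have 1 red circle far to the left.

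**Figure D2:**
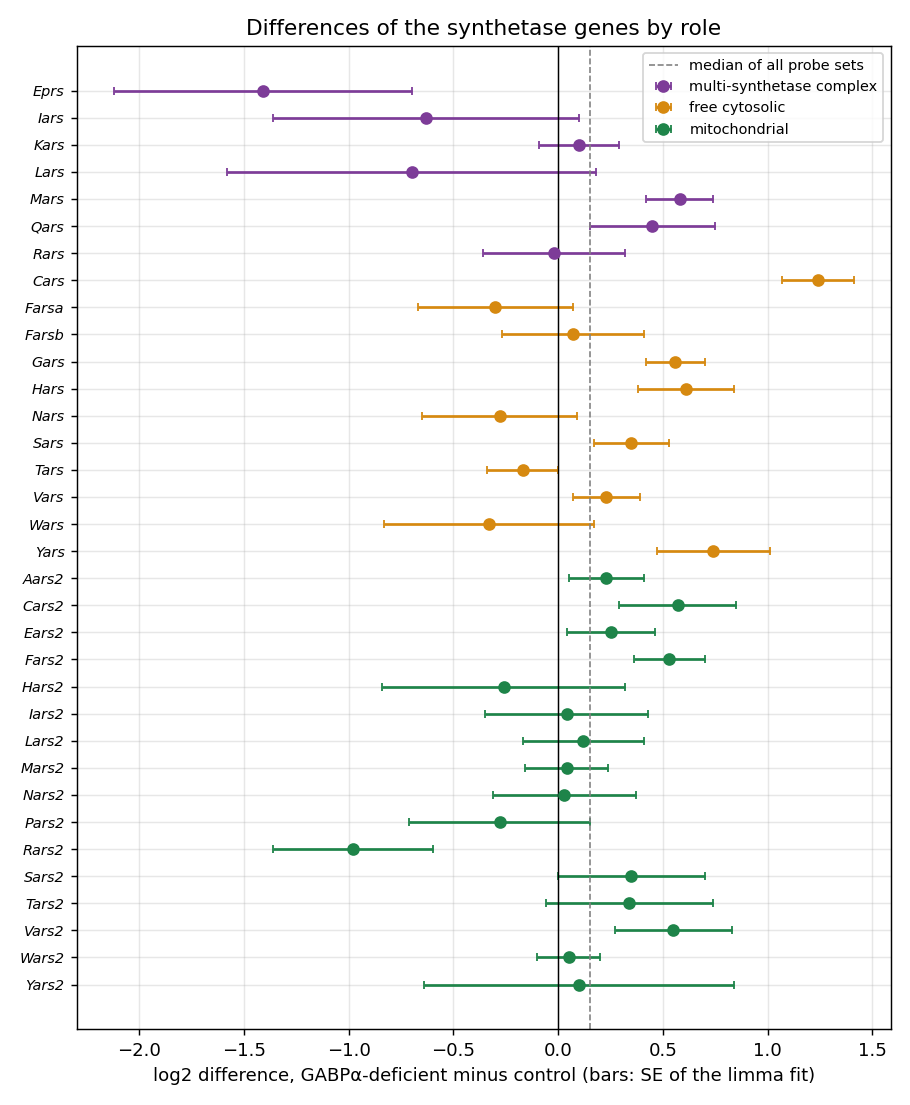
Log2 difference of each member, GABPα-deficient minus control, with bars of 1 SE of the limma fit, coloured by role; the dashed line is the median of all probe sets, 0.15. Cars lies highest at 1.24 and Eprs lowest at −1.41, with a long bar.

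The multi-synthetase complex holds 8 enzyme subunits of the list, 7 of them measured. Their median difference was −0.02, against 0.15 for all probe sets, with 3 above 0 and 4 below. Single arrays set its sign: it was 0.35 without GABPα-deficient replicate 1 and −0.39 without replicate 2, and −0.05 and −0.25 without control replicates 1 and 2. For Eprs, Lars and Iars the 2 GABPα-deficient arrays lay farther apart than the groups' means. Eprs, the bifunctional enzyme for glutamate and proline, read 6.80 and 8.71 on the GABPα-deficient arrays and 9.23 and 9.11 on the controls. Both GABPα-deficient values were below the controls, with replicate 1 far lower, and the difference was −1.41 (SE 0.71, limma adjusted p = 0.450). Without GABPα-deficient replicate 1 the Eprs difference was −0.45, and without replicate 2 it was −2.37.

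Lars, which charges leucine, read 8.00 and 10.38 on the GABPα-deficient arrays, against 9.80 and 9.97 on the controls. Iars, for isoleucine, read 8.40 and 10.36 on the GABPα-deficient arrays, against 9.96 and 10.06 on the controls. For both genes GABPα-deficient replicate 1 was the lowest array and replicate 2 the highest, so the groups overlapped. The differences were −0.70 for Lars (SE 0.88) and −0.63 for Iars (SE 0.73). Leaving out GABPα-deficient replicate 1 turned them to 0.49 and 0.35. The other probe set annotated to Iars gave the same picture, with 7.83 and 9.37 on the GABPα-deficient arrays and 9.09 and 8.90 on the controls (difference −0.39, SE 0.58).

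Rars, for arginine, was arranged alike on a smaller scale, with 10.56 and 11.31 on the GABPα-deficient arrays and 11.19 and 10.73 on the controls (difference −0.02, SE 0.34). Kars, which charges lysine in the cytosol and in mitochondria, read 10.43 and 10.64 on the GABPα-deficient arrays and 10.29 and 10.58 on the controls, a difference of 0.10 (SE 0.19) with overlapping groups.

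The remaining subunits went the other way. Mars, which charges methionine for initiation and elongation, read 9.51 and 9.29 on the GABPα-deficient arrays, against 8.82 and 8.81 on the controls. Both GABPα-deficient values were higher, by 0.58 (SE 0.16, limma adjusted p = 0.400). Qars, for glutamine, read 9.60 and 8.88 on the GABPα-deficient arrays and 8.76 and 8.83 on the controls (difference 0.45, SE 0.30). The groups separated by only 1 narrow step, since GABPα-deficient replicate 2 was near the controls, and without replicate 1 the difference was 0.08.

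The 3 scaffolds of the complex had a median difference of 0.31, which was 0.19 without GABPα-deficient replicate 1. Aimp2, a scaffold that also binds lysyl-tRNA synthetase, read 10.17 and 10.34 on the GABPα-deficient arrays and 9.50 and 9.99 on the controls, a difference of 0.51 (SE 0.23). Eef1e1, the small partner AIMP3, read 10.23 and 9.99 on the GABPα-deficient arrays and 9.71 and 9.88 on the controls, 0.31 (SE 0.17). For both the GABPα-deficient arrays were above the controls. Aimp1, the scaffold also known as a secreted cytokine precursor, read 9.72 and 9.13 on the GABPα-deficient arrays and 9.70 and 9.38 on the controls, with overlapping groups and a difference of −0.11 (SE 0.28). None of the 3 passed the threshold.

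Among the 11 measured free cytosolic enzymes, 7 were above 0 and 4 below, with a median difference of 0.23. Both GABPα-deficient arrays were above both controls for 6 of the 11 and below for 0, where 38.9% and 14.0% of all probe sets were. The median ran from 0.14 without control replicate 1 to 0.33 without GABPα-deficient replicate 2 or control replicate 2. Cars, which charges cysteine, had the highest difference and the smallest p of all 34 members. It read 8.31 and 8.12 on the GABPα-deficient arrays, against 7.09 and 6.86 on the controls. The means were 8.21 ± 0.14 on the GABPα-deficient arrays and 6.97 ± 0.16 on the controls (SD, n = 2 each), a difference of 1.24 (SE 0.17), which is 2.36-fold. The gap between groups was wider than the spread within either group, but limma's adjusted p was 0.276. With any 1 array left out the Cars difference stayed between 1.13 and 1.35.

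Gars, the glycine enzyme that serves both cytosol and mitochondria, read 10.51 and 10.63 on the GABPα-deficient arrays and 10.00 and 10.03 on the controls. The groups were apart by a difference of 0.56 (SE 0.14, limma adjusted p = 0.392). Yars, for tyrosine, read 9.42 and 8.82 on the GABPα-deficient arrays, against 8.27 and 8.48 on the controls (difference 0.74, SE 0.27). Hars, for histidine, read 10.54 and 10.05 on the GABPα-deficient arrays, against 9.76 and 9.59 on the controls (0.61, SE 0.23). For Yars and Hars, replicate 1 was the higher GABPα-deficient array and both were above the controls.

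Sars, which charges serine and also starts the route to selenocysteine, read 10.99 and 10.66 on the GABPα-deficient arrays and 10.46 and 10.48 on the controls (difference 0.35, SE 0.18). Vars, for valine, read 9.21 and 9.09 on the GABPα-deficient arrays and 8.82 and 9.03 on the controls (0.23, SE 0.16). Both separated the groups by small steps. With any 1 array left out the differences of Sars, Vars, Hars, Yars and Gars all stayed above 0, from 0.12 at the lowest (Vars) to 1.04 at the highest (Yars).

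The free enzymes with overlapping groups had differences near or below 0. Wars, the tryptophan enzyme, which is induced by interferon gamma in human cells, read 9.05 and 7.73 on the GABPα-deficient arrays and 8.73 and 8.71 on the controls (difference −0.33, SE 0.50). The GABPα-deficient arrays lay on either side of the controls. Nars, for asparagine, read 9.60 and 10.52 on the GABPα-deficient arrays and 10.42 and 10.26 on the controls (−0.28, SE 0.37). Tars, for threonine, read 8.62 and 8.73 on the GABPα-deficient arrays and 8.99 and 8.71 on the controls (−0.17, SE 0.17).

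The phenylalanine enzyme of the cytosol is built from an alpha subunit, Farsa, and a beta subunit, Farsb, and the subunits were arranged in opposite ways. Farsa read 9.27 and 8.42 on the GABPα-deficient arrays and 8.92 and 9.37 on the controls (difference −0.30, SE 0.37). Farsb read 8.83 and 9.67 on the GABPα-deficient arrays and 9.26 and 9.12 on the controls (0.07, SE 0.34). GABPα-deficient replicate 1 was the higher of its group for Farsa and the lower for Farsb.

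Among the 16 mitochondrial enzymes, 13 differences were above 0 and 3 below, where 66.4% of all probe sets were above 0. That count moved with the arrays: it was 9 of 16 without GABPα-deficient replicate 1, 14 without replicate 2, 10 without control replicate 1 and 9 without control replicate 2. Relative to the median of all probe sets, 7 of 16 were higher. Rars2, the mitochondrial arginine enzyme, had the largest difference in size of this set. It read 7.27 and 7.95 on the GABPα-deficient arrays, against 8.95 and 8.23 on the controls. Both GABPα-deficient values were lower, by a difference of −0.98 (SE 0.38, limma adjusted p = 0.426), and with any 1 array left out it ran from −1.33 to −0.62. Its promoter window holds the ETS core at position −4.

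Fars2, the single-chain phenylalanine enzyme of mitochondria, read 9.13 and 8.88 on the GABPα-deficient arrays and 8.56 and 8.38 on the controls. Both GABPα-deficient arrays were higher, by 0.53 (SE 0.17, limma adjusted p = 0.410). Cars2, the mitochondrial cysteine enzyme, known in mice also as a source of cysteine persulfides, read 8.80 and 8.19 on the GABPα-deficient arrays and 7.78 and 8.08 on the controls (0.57, SE 0.28). Vars2, for valine, read 7.73 and 7.09 on the GABPα-deficient arrays and 6.99 and 6.73 on the controls (0.55, SE 0.28). For Cars2 and Vars2 replicate 1 was well above the controls and replicate 2 only just above.

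Aars2, for alanine, read 6.56 and 6.33 on the GABPα-deficient arrays and 6.11 and 6.32 on the controls, a difference of 0.23 (SE 0.18), where the lower GABPα-deficient array barely exceeded the higher control. Ears2, for glutamate, read 6.62 and 6.31 on the GABPα-deficient arrays and 6.06 and 6.37 on the controls (0.25, SE 0.21). Tars2, for threonine, read 8.74 and 7.81 on the GABPα-deficient arrays and 7.71 and 8.17 on the controls (0.34, SE 0.40). In Ears2 and Tars2 the replicates of the groups interleaved.

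Sars2, for serine, read 7.59 and 7.33 on the GABPα-deficient arrays and 7.53 and 6.69 on the controls (difference 0.35, SE 0.35). Yars2, for tyrosine, read 7.97 and 6.53 on the GABPα-deficient arrays and 7.86 and 6.44 on the controls (0.10, SE 0.74). In Yars2 the gap within each group was far larger than the difference between the groups: replicate 1 exceeded replicate 2 by 1.44 on the GABPα-deficient and by 1.42 on the control arrays.

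Hars2, for histidine, and Pars2, for proline, had 1 low GABPα-deficient array. Hars2 read 7.81 and 6.26 on the GABPα-deficient arrays and 7.25 and 7.33 on the controls (difference −0.26, SE 0.58), and Pars2 read 6.97 and 5.90 on the GABPα-deficient arrays and 6.57 and 6.86 on the controls (−0.28, SE 0.43). Nars2, for asparagine, was arranged alike at 6.75 and 5.91 on the GABPα-deficient arrays and 6.23 and 6.38 on the controls (0.03, SE 0.34). In all 3, replicate 1 was the highest array and replicate 2 the lowest, the reverse of Lars and Iars.

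The last mitochondrial enzymes hardly differed between the groups. Iars2, Lars2, Mars2 and Wars2, for isoleucine, leucine, methionine and tryptophan, had differences of 0.04, 0.12, 0.04 and 0.05 with overlapping groups. Wars2 had the tightest values, with 6.17 and 6.08 on the GABPα-deficient arrays and 6.01 and 6.14 on the controls. Iars2 spread widely, with 7.37 and 7.73 on the GABPα-deficient arrays and 7.99 and 7.04 on the controls. The differences of Iars2, Mars2, Nars2 and Wars2 turned below 0 under cyclic loess and with the median of each array subtracted.

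Cytosolic and mitochondrial enzymes for the same amino acid were set side by side in 16 pairings, with Eprs counted against both Ears2 and Pars2 and Fars2 against both Farsa and Farsb. Both differences were above 0 in 6, both below in 2, and they had opposite signs in 8. Cysteine had the highest pair, with 1.24 for Cars and 0.57 for Cars2. Among pairings with a shared sign, proline was farthest apart, with −1.41 for Eprs and −0.28 for Pars2, and arginine next, with −0.02 for Rars and −0.98 for Rars2. Histidine ran in opposite directions, with 0.61 for Hars and −0.26 for Hars2, and so did glutamate, with −1.41 for Eprs and 0.25 for Ears2.

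**Figure D3:**
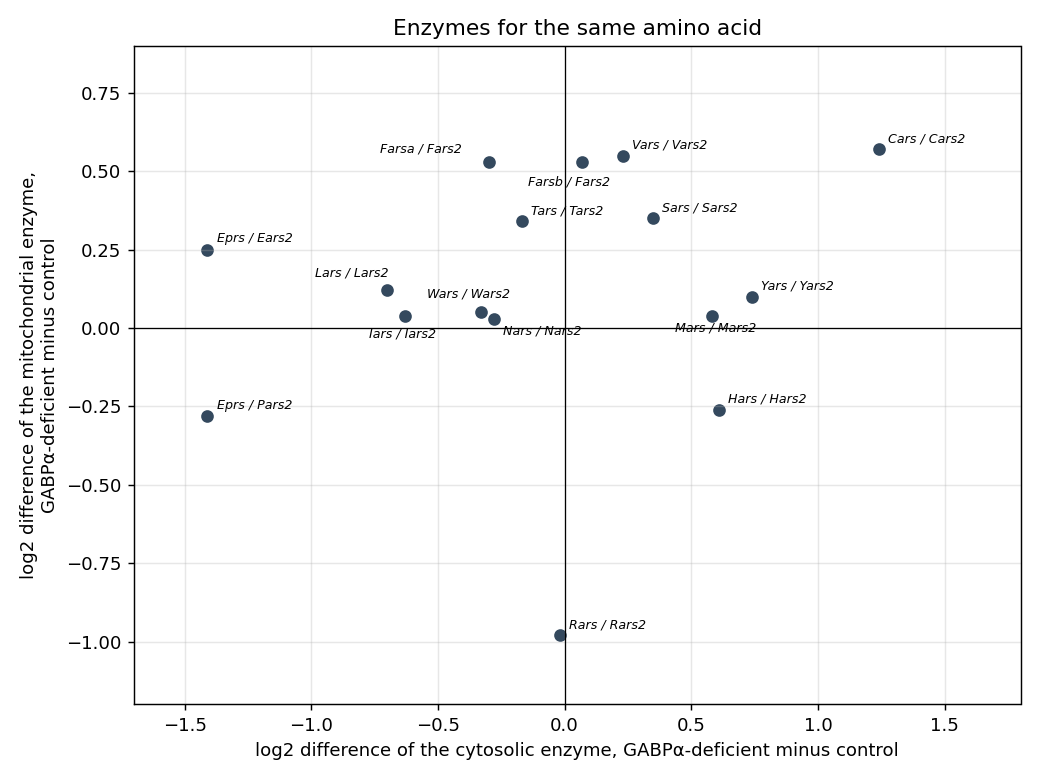
Log2 difference (GABPα-deficient minus control) of the cytosolic enzyme against that of the mitochondrial enzyme for the same amino acid, 1 point for each of 16 pairings. Points lie in all 4 quadrants, with Cars and Cars2 at the upper right and 8 pairings of opposite sign.

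Synthetases fall into 2 structural classes, with different folds of the catalytic domain. The 19 measured genes of class I and the 15 of class II both had a median difference of 0.10. Without GABPα-deficient replicate 1 these medians were 0.16 in class I and 0.18 in class II, without replicate 2 they were 0.29 and 0.45, and without control replicate 1 they were 0.21 and 0.11. Class I ranged from −1.41 to 1.24 and class II from −0.30 to 0.61, with Eprs, which carries a domain of each class, counted in class I.

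The gap between arrays of 1 group was wider on the GABPα-deficient side. The median size of the gap over all 34 members was 0.61 between the GABPα-deficient arrays and 0.21 between the controls, where all probe sets had 0.23 and 0.21. All measured members lay in the brighter 50% of the table, and the gap over brighter probe sets alone is not given. These values therefore do not show a trait particular to synthetases. In related gene lists the GABPα-deficient gap was 1.14 for mitochondrial translation factors, 0.73 for mitochondrial tRNA processing and 0.48 for other tRNA charging genes. It was 0.31 for amino acid stress genes, 0.25 for the scaffolds and 0.22 for cytosolic elongation. Of the mitochondrial enzymes, 14 of 16 read higher on GABPα-deficient replicate 1 than on replicate 2, and 2, Iars2 and Rars2, read lower. Of the 7 subunits of the complex, 5 read lower on replicate 1. Over all probe sets, 53.9% read lower on replicate 1. So did 1 of 10 other tRNA charging genes, 4 of 23 amino acid stress genes and 3 of 9 mitochondrial translation factors. It was 4 of 12 for mitochondrial tRNA processing, 2 of 6 for cytosolic elongation and 1 of 3 for the scaffolds. The gaps of Lars (−2.38), Iars (−1.96) and Eprs (−1.92) were below those of all but 0.863%, 1.37% and 1.42% of probe sets.

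As a description, the gap between the GABPα-deficient arrays went with the genomic span of the gene. The rank correlation of span with replicate 1 minus replicate 2 was −0.49 across 34 members and −0.11 across 19856 genes, where the points share the same 2 arrays and genes are not independent. Lars, Iars and Eprs span 59.9, 52.1 and 66.9 kb, against a median of 23.3 kb over the members. The 4 longest members had gaps above 0: Fars2 (420 kb, gap 0.24), Nars2 (114 kb, 0.84), Lars2 (95.7 kb, 0.13) and Wars2 (81.1 kb, 0.09). A part of gene length, RNA quality or amount of RNA in these gaps was not tested. Amplification began, per the labels, with between 800 pg and 50 ng of RNA, and no amount is given for each sample.

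**Figure D4:**
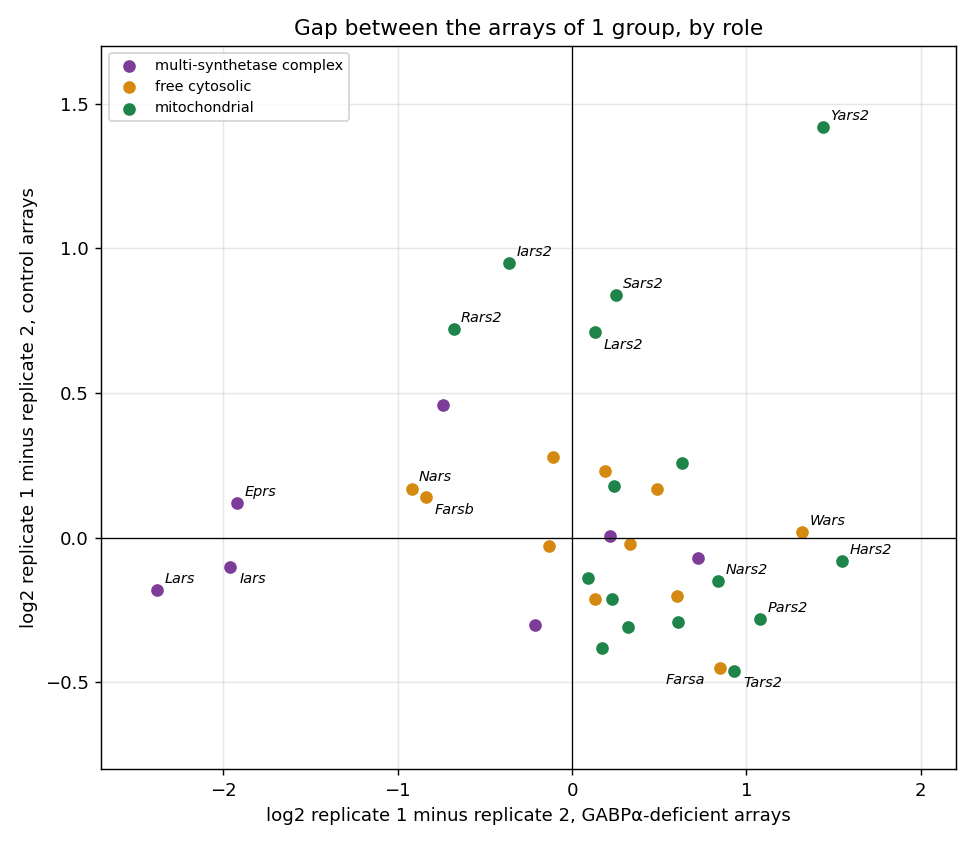
Log2 gap between replicate 1 and replicate 2 on the GABPα-deficient arrays (horizontal) and on the control arrays (vertical) for each of the 34 members, coloured by role. Lars, Iars and Eprs lie far to the left near 0 on the vertical axis, most mitochondrial enzymes lie to the right, and Yars2 is high on both axes.

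Of the 10 measured members usually counted among ATF4 targets, 5 had differences above 0 and 5 below, with a median of 0.09. The median was 0.27 without GABPα-deficient replicate 1, 0.41 without replicate 2, 0.16 without control replicate 1 and 0.03 without control replicate 2. Cars, Gars, Mars, Sars and Yars separated the groups upward, Eprs separated downward, and Iars, Nars, Tars and Wars overlapped, where 38.9% of all probe sets separated upward and 14.0% downward. Atf4 itself read 9.97 and 9.14 on the GABPα-deficient arrays, against 8.98 and 9.07 on the controls (difference 0.53, SE 0.33, limma adjusted p = 0.490). Both GABPα-deficient arrays were above the controls, replicate 2 only narrowly.

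The wider list of amino acid stress genes had 23 measured genes, 18 above 0 and 5 below, with a median difference of 0.40. Without GABPα-deficient replicate 1 the median was 0.14, as for all probe sets under that setting (0.14). Without replicate 2 the list had 0.53 and all probe sets 0.13. The corresponding medians were 0.29 and 0.11 without control replicate 1, and 0.43 and 0.19 without control replicate 2. Of these, 12 separated the groups upward and 3 downward, where 38.9% and 14.0% of all probe sets did, and 0 passed the adjusted threshold. Asns, which makes asparagine and is a standard ATF4 target, read 10.84 and 10.73 on the GABPα-deficient arrays, against 8.07 and 9.07 on the controls (difference 2.22, SE 0.39, limma adjusted p = 0.313). Slc7a5, the large neutral amino acid transporter LAT1, read 10.36 and 10.37 on the GABPα-deficient arrays, against 9.29 and 9.34 on the controls (1.05, SE 0.14, limma adjusted p = 0.252). Chac1, which degrades glutathione, differed by 0.72 (SE 0.16). All 3 stood clear of the controls on both arrays.

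In the same list the kinase gene Eif2ak4, which encodes GCN2, read 5.81 and 5.30 on the GABPα-deficient arrays, against 7.12 and 6.45 on the controls. It was lower on both, by a difference of −1.23 (SE 0.33, limma adjusted p = 0.400). Cebpg, a dimer partner of ATF4, differed by −0.96 (SE 0.17), and Vldlr, a lipoprotein receptor, by −1.04 (SE 0.31). The 3 lower genes and the 12 higher ones thus stood in 1 list, and Asns and the asparagine enzyme Nars were not arranged alike.

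**Figure D5:**
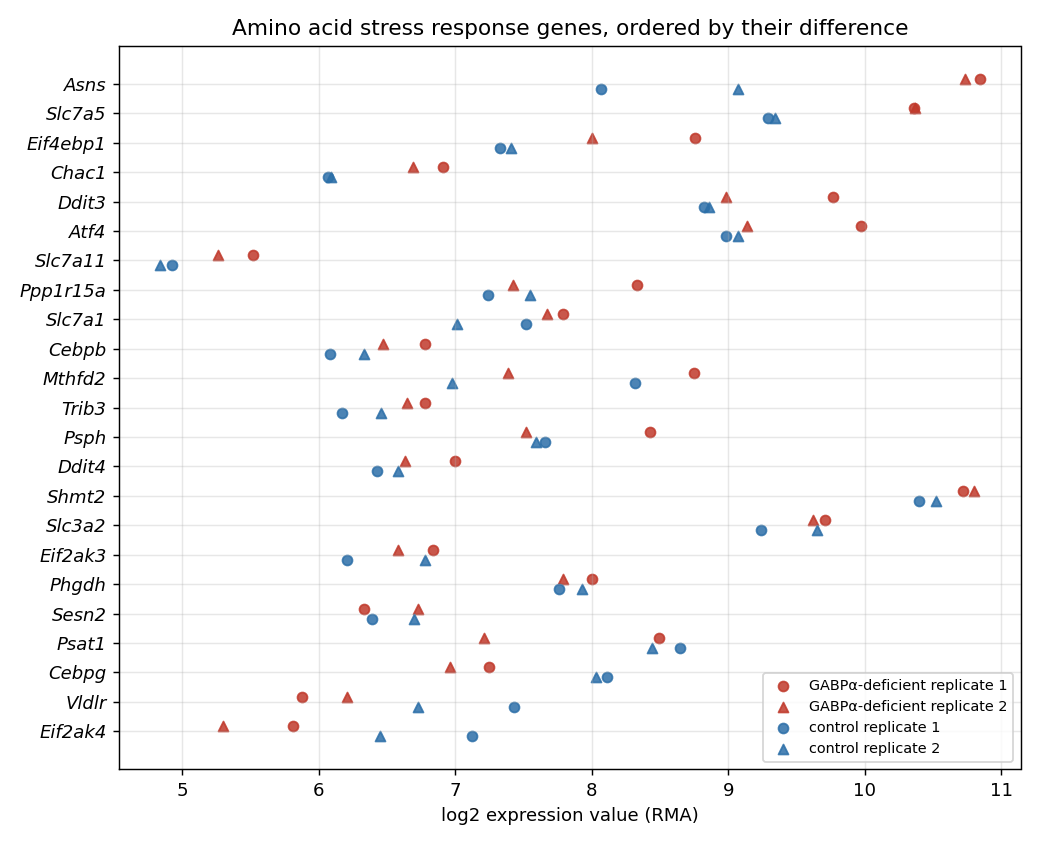
Log2 expression values of the 23 measured amino acid stress genes on the 4 arrays, ordered from the highest difference (Asns, 2.22) at the top to the lowest (Eif2ak4, −1.23) at the bottom. Red marks GABPα-deficient and blue control arrays, circles replicate 1 and triangles replicate 2.

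Other steps of tRNA use gave no call. Of 10 further genes of tRNA charging and amidation, 5 were above 0 and 5 below, with a median of 0.02, which was −0.38 without GABPα-deficient replicate 1, 0.13 without replicate 2, 0.0041 without control replicate 1 and −0.06 without control replicate 2. Mtfmt, which formylates the mitochondrial initiator methionyl-tRNA, read 6.51 and 6.31 on the GABPα-deficient arrays, against 7.28 and 7.54 on the controls. It was lower on both, by a difference of −1.00 (SE 0.18, limma adjusted p = 0.316). Dtd1, which removes D-amino acids from tRNA, differed by −0.70 (SE 0.36). Pstk, which acts on the way to selenocysteinyl-tRNA, differed by −0.67 (SE 0.40) with overlapping groups. Sepsecs, of the same route, differed by 0.04. Gatb, Gatc and Qrsl1, the subunits that make mitochondrial glutaminyl-tRNA by amidation, differed by 0.15, −0.0058 and 0.04.

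Mitochondrial translation factors had a median of 0.08 over 9 genes, with 5 above 0 and 4 below. It was 0.04 without GABPα-deficient replicate 1, 0.85 without replicate 2, 0.31 without control replicate 1 and 0.04 without control replicate 2. Gfm1, a mitochondrial elongation factor, read 9.64 and 9.45 on the GABPα-deficient arrays, against 8.65 and 8.77 on the controls (difference 0.83, SE 0.16, limma adjusted p = 0.327). The initiation factor gene Mtif2 read 5.02 and 6.95 on the GABPα-deficient arrays, against 8.01 and 7.03 on the controls (−1.53, SE 0.80). Mtif3, also for initiation, differed by 0.63 and the elongation factor gene Tufm by 0.58. The release factor genes Mtrf1l and Mtrf1 differed by −1.40 (SE 0.86) and −1.09 (SE 1.05), with overlapping groups for both. Genes of mitochondrial tRNA processing had a median of 0.09 over 12 genes, which was −0.06 without GABPα-deficient replicate 1, 0.35 without replicate 2, −0.04 without control replicate 1 and 0.31 without control replicate 2. Elac2, which trims the 3′ end of tRNA precursors, differed by 0.84 (SE 0.21), and Trmt5, a tRNA methyltransferase, by −1.47 (SE 0.34). Trmu and Pus1, which modify tRNA, differed by 1.11 and 0.39, and Trnt1, which adds the CCA end, and Trit1 by −1.21 and −0.25. Of 6 genes of cytosolic elongation, the factors Eef1a1 and Eef2 differed by −0.01 and −0.0011, and the eEF1A methyltransferase gene Eef1akmt1 by 1.76 (SE 0.28, limma adjusted p = 0.294). Eef1d, Eif5a and Eef1b2 differed by 0.33, 0.16 and −0.11.

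Facts of the arrays touch every value above. Gabpa read 6.43 and 7.85 on the GABPα-deficient arrays and 8.43 and 7.28 on the controls, so its probe set did not separate the groups, and a probe set outside the deleted exons would check nothing. Markers of the sorting gate, stem cells and progenitors were lower for 8 of 8 measured genes. The median level of these markers was 6.52 and 7.06 on the GABPα-deficient arrays and 8.77 and 8.96 on the controls. The list includes Flt3, although the sorted cells were Flt3-negative. Flt3 read 5.68 and 5.95 on the GABPα-deficient arrays, against 8.43 and 9.26 on the controls. Erythroid markers were higher for 9 of 9, with medians of 9.67 and 9.65 on the GABPα-deficient arrays and 7.12 and 7.28 on the controls. Macrophage markers were above 0 for 10 of 10, with 8.14 and 6.72 on the GABPα-deficient arrays and 6.38 and 6.12 on the controls, and plasma and B cell markers for 9 of 9, with 7.69 and 7.87 on the GABPα-deficient arrays and 6.13 and 6.31 on the controls. The groups separated upward for 7 of the 10 macrophage genes and 5 of the 9 plasma and B cell genes. They overlapped for the other 3 and 4. Over all probe sets 38.9% separated upward and 14.0% downward. The other lists were mixed in direction: 7 of 10 stromal and endothelial, 6 of 10 granulocyte and 7 of 9 T and NK cell genes were above 0. In these lists 7, 5 and 5 genes separated upward, in that order, and 1 in each separated downward. Their medians were 6.71 and 6.66 (stromal), 9.42 and 8.66 (granulocyte) and 5.71 and 6.43 (T and NK) on the GABPα-deficient arrays, against 6.28 and 6.53, 9.38 and 9.37, and 5.16 and 5.25 on the controls. The part of these cell markers in the synthetase differences was not tested, and fewer cells of a type cannot be told apart from less RNA per cell in bulk samples.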

How the data were processed

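RNA of 4 samples was hybridised to Mouse Gene 1.0 ST arrays (Affymetrix). The deposited log2 values, 1 per probe set, were made by the authors with RMA and Partek, per the submitters' processing notes, with no version stated. RMA corrects background, normalizes by quantiles and summarises probes. The sources used here give no genome build. The range, 1.98 to 13.7, fitted a log2 scale, so values were used as deposited. Every column of values matched a sample (0 left over).

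Probe sets were named from the platform annotation by Entrez number in the RefSeq table of GRCm38.p6 (21789 with 1 gene, 1621 with several, 12146 with none). A member was matched by its current symbol, and by a synonym only where no gene bore the name (Mars, now Mars1). The probe set with the highest mean stood for a gene. The fit was limma 3.58.1 in R 4.3.3 (lmFit, eBayes, genotype only, Benjamini-Hochberg over 35556 probe sets), tested on simulated data. The simulation gave every probe set the same SD, so it cannot check p-values where the spread differs between probe sets, as here. Lists are described by counts and medians with no set test. The number of arrays limits the precision, and an exact permutation test of 2 against 2 cannot go below p = 0.333. Replicate 1 deviations of the groups had a correlation of −0.0883 over probe sets, and nothing in the labels says that the numbers pair samples. The rule named all members, the scaffolds, Atf4, Asns, Eif2ak4 and Gabpa, and up to 3 genes in each direction of each related list by unadjusted p; Gatc, which completes the amidation enzyme, was named after its value was seen. Printed promoters were those of the 3 members with the core and the smallest unadjusted p. Members and lists were chosen with earlier results of these data known.

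Alternatives were cyclic loess, median subtraction, leaving out the dimmer 50% of probe sets, a replicate block, an intensity trend, the mean of a gene's probe sets, and leaving out each array. Figures used matplotlib 3.10.9.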

Additional observations from a re-analysis of the deposited data

How the results depend on the processing

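No member and no probe set passed an adjusted p under 0.05 in limma under any alternative run (0 in each). The count of members higher at an unadjusted p under 0.05, 4 as reported, was 2 with an intensity trend and 1 to 7 with 1 array left out. The count of lower members, 0 as reported, was 0 to 4. With the replicate block the counts were 4 and 0, and no call changed. The median difference of the cytosolic or shared members was 0.0032 with array medians subtracted and 0.12 to 0.28 with 1 array left out. That of the mitochondrial members was 0.03 to 0.43, with 0.43 coming without GABPα-deficient replicate 2.

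Of 204 member values under settings that kept all 4 arrays, 9 turned direction. Under cyclic loess these were Iars2 (−0.01), Mars2 (−0.03), Nars2 (−0.14) and Wars2 (−0.14). With array medians subtracted they were Farsb (−0.01), Iars2 (−0.04), Mars2 (−0.04), Nars2 (−0.05) and Wars2 (−0.03). With 1 array left out, 16 members kept their direction, 13 above 0 and 3 (Eprs, Rars2 and Tars) below. The other 18 turned, with log2 differences of Iars −1.61 to 0.35, Lars −1.89 to 0.49, Nars −0.74 to 0.18, Rars −0.39 to 0.35, Mars2 −0.15 to 0.23, Nars2 −0.39 to 0.45, Tars2 −0.13 to 0.80, Yars2 −0.62 to 0.82, Farsa −0.72 to 0.12, Farsb −0.35 to 0.49, Kars −0.05 to 0.25, Wars −0.99 to 0.33, Hars2 −1.04 to 0.51, Iars2 −0.43 to 0.52, Pars2 −0.82 to 0.26, Wars2 −0.02 to 0.12, Lars2 −0.23 to 0.48 and Sars2 −0.07 to 0.77. The cause was not tested.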
